A study of Sus scrofa with 6 samples.

Results

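The basement membrane genes of pig longissimus muscle, the long back muscle, are described here in 3 libraries from animals with high and 3 from animals with low intramuscular fat, the fat lying between and within bundles of muscle fibres. Records of the deposited table were taken when their symbol named a laminin chain, a nidogen, perlecan (HSPG2), a collagen IV chain, COL15A1 or COL18A1, and records of the same symbol were kept separate. This gave 11 of 7661 records, for 10 symbols. A further 2 records carried no symbol in that table and were named HSPG2 and NID1 through an Ensembl name table, so that 13 records for 12 genes were analysed. RefSeq lists 23 pig genes with such symbols, and the other 11 were not analysed here. The deposited table holds only records above 10 CPM (read counts scaled to the library total) in at least 3 libraries. Of the 13 records, 11 exceeded that level in all 6 libraries and 2 in 5 libraries, so none entered the table through 1 group alone.

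The study compared mRNA of the muscle between the fat groups by RNA sequencing. Each library is labelled with its fat group and its tissue, and the design text counts 3 pigs to a group. The sources used here state neither breed and sex nor age, genotype or measured fat content. Library totals lay between 25371989 and 34813172 reads, and 3 counts corresponded to between 0.0862 and 0.118 CPM. The 6 muscle fibre marker records, among them the myosin gene MYH4 and the troponin gene TNNT1, summed to between 90549 and 98593 CPM, so the markers of the labelled tissue were present in every library.

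Every muscle fibre, capillary and fat cell is wrapped in a basement membrane, a thin sheet of extracellular matrix. Its laminins are trimers of an α, a β and a γ chain that assemble at the cell surface, while collagen IV forms the second network, and nidogens and the heparan sulfate proteoglycan perlecan join these networks. Fibres bind the laminin sheet through dystroglycan, the outer part of the dystrophin complex, and through integrins. Collagen XV lies at the outer face of the sheet, towards the collagen fibres of the connective tissue.

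None of the 13 records passed the threshold (edgeR quasi-likelihood adjusted p under 0.05 over all records), beside 0.144% of all records, of which 11 were called. Even so, 12 of 13 had a log2 fold change above 0 (high minus low), where 45.2% of all records did. Their median log2 fold change was 0.39, against -0.04 over all records. Without low library 3 the median was 0.58. An unadjusted p under 0.05 with a higher level in the high group was found for 7 of the 13 records and for 10.2% of all records. In 6 of 13 records every high library lay above every low library in deposited CPM, as in 10.4% of all records. Among the 11 records with a deposited symbol these counts were 10, 5 and 5. With TMM factors, which rescale each library, every high library lay above every low library in 8 of the 13 records. That held for 1032 of all 7661 records. In bulk tissue, more cells of a type and more RNA per cell cannot be told apart.

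**Figure D1:**
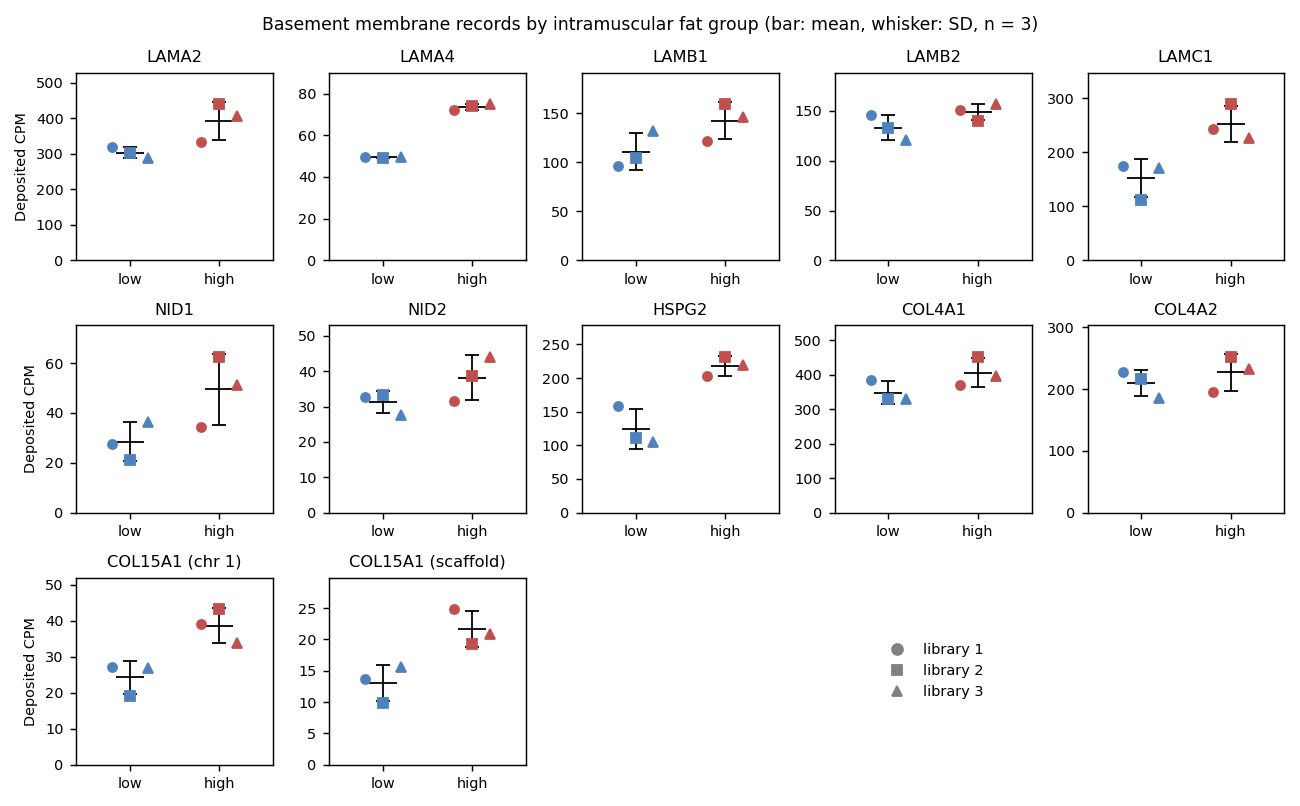
Deposited CPM of 12 basement membrane records in the 3 low and 3 high libraries, with a separate axis from 0 for each record (bar: mean, whisker: SD, marker shape: library number). The groups are apart for LAMA2, LAMA4, LAMC1, HSPG2 and both COL15A1 records, and overlap for the other 6.

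Of the laminin α chains, LAMA4 (chromosome 1, 87740894 to 87808805) encodes the α4 chain, known from the basement membranes of blood vessels and fat cells. It was at 49.6, 49.0 and 49.3 CPM in low libraries 1 to 3 and at 72.2, 74.1 and 74.8 CPM in high libraries 1 to 3. The groups were well apart, and within each the libraries were almost level. The means were 49.3 ± 0.316 and 73.7 ± 1.35 CPM (SD, n = 3 each), a ratio of 1.49, with a log2 fold change of 0.59 (SE 0.11, quasi-likelihood adjusted p = 0.0966). The coefficient of variation of 0.640% in the low group was below the 2.51% that counting error alone gives at its mean count. With TMM factors, which rescale each library, the low libraries spread to 49.1, 45.7 and 52.5 CPM and the high ones stood at 75.4, 71.8 and 75.3 CPM, so the tight agreement belongs to the deposited scale and the separation to both.

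LAMA2 (chromosome 1, 37207702 to 37509944) encodes the α2 chain of the sheet around muscle fibres, the chain missing in one form of congenital muscular dystrophy. Its levels were 319, 301 and 288 CPM in low libraries 1 to 3 and 333, 439 and 405 CPM in high libraries 1 to 3. The groups did not overlap, but low library 1 and high library 1 were close. Its log2 fold change was 0.39 (SE 0.14, quasi-likelihood adjusted p = 0.226). The ratio of LAMA4 to LAMA2 within a library was 0.163 ± 0.00785 in the low and 0.190 ± 0.0245 in the high group (SD, n = 3), and the groups overlapped (two-sided exact permutation p = 0.2, adjusted p = 0.35 over 7 ratios). With 3 against 3 libraries that test cannot go below 0.1. Such ratios are compared between libraries only, since transcript lengths were not used here.

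Both β chains, LAMB1 and LAMB2, overlapped between the groups. LAMB1 (chromosome 9, 118439608 to 118514521), the β1 chain of most fibre laminins, was at 96.0, 104 and 132 CPM in low libraries 1 to 3 and at 122, 159 and 147 CPM in high libraries 1 to 3, low library 3 lying above high library 1. LAMB2 (chromosome 13, 34969985 to 34980934), the β2 chain found at the neuromuscular junction, was at 146, 133 and 121 CPM in the low and 151, 140.1 and 156 CPM in the high libraries, again overlapping. Their log2 fold changes were 0.37 (SE 0.19) and 0.18 (SE 0.13), with adjusted p of 0.329 and 0.474 (edgeR quasi-likelihood). LAMB1 depended on low library 3, without which it stood at 0.58. The LAMB1 to LAMB2 ratio ranged from 0.657 to 1.14 over the 6 libraries and overlapped between the groups (exact permutation p = 0.4).

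LAMC1 (chromosome 9, 136548464 to 136668804) encodes γ1, the partner in nearly all laminins of muscle. It was at 174, 112 and 170.2 CPM in low libraries 1 to 3 and at 243, 288 and 225 CPM in high libraries 1 to 3. The highest low library was thus below the lowest high library, and low library 2 stood beneath the rest. The ratio of means was 1.66 and the log2 fold change 0.73 (SE 0.22, quasi-likelihood adjusted p = 0.175); without low library 2 it was 0.52.

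**Figure D2:**
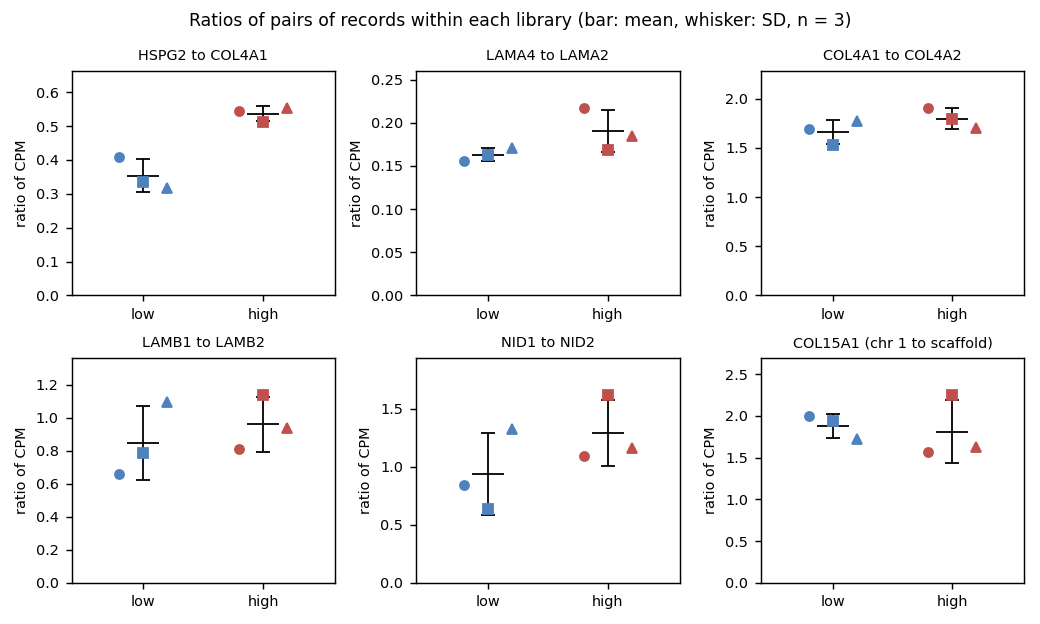
Ratios of the deposited CPM of pairs of basement membrane records within each library, for 3 low and 3 high libraries (bar: mean, whisker: SD; axes start at 0). The ratio of HSPG2 to COL4A1 does not overlap between the groups, while the other 5 do.

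HSPG2 (perlecan; chromosome 6, 73920982 to 73947323), whose heparan sulfate chains hold growth factors in the sheet, did not overlap between the groups. Its levels were 158, 110.3 and 104 CPM in low libraries 1 to 3 and 202, 232 and 219 CPM in high libraries 1 to 3. Low library 1 came nearest to the high group. The means of 124 ± 29.3 and 218 ± 14.8 CPM (SD, n = 3) had a ratio of 1.75, with a log2 fold change of 0.83 (SE 0.18, quasi-likelihood adjusted p = 0.112). Without low library 1 the value was 1.05 and passed narrowly (adjusted p = 0.0498), and over all 6 omissions of a library the adjusted p ran from 0.0498 to 0.323. In the authors' deposited table HSPG2 had a log2 fold change of 0.83, turned here to high minus low, and a false discovery rate of 0.0147, the one basement membrane record with a rate under 0.05 there.

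The nidogens link laminin to collagen IV. NID1 (chromosome 14, 59336243 to 59454745) was at 27.5, 21.1 and 36.6 CPM in the low and 34.4, 62.6 and 51.4 CPM in the high libraries, where low library 3 exceeded high library 1. Its log2 fold change was 0.79 (SE 0.28, quasi-likelihood adjusted p = 0.214), with a range of 0.58 to 1.08 when single libraries were left out. NID2 (chromosome 1, 201971913 to 202044999) was at 32.7, 33.3 and 27.6 CPM in the low and 31.5, 38.8 and 44.1 CPM in the high libraries, also overlapping. With TMM factors NID2 did not overlap, at 32.3, 31.0 and 29.4 CPM in the low and 32.9, 37.6 and 44.4 CPM in the high libraries. Its log2 fold change of 0.31 (SE 0.14, adjusted p = 0.295) became 0.19 without high library 3. The NID1 to NID2 ratio, at 0.935 ± 0.353 in the low and 1.29 ± 0.284 in the high group (SD, n = 3), overlapped as well (exact permutation p = 0.3, adjusted p = 0.42).

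COL4A1 and COL4A2, the chains of the collagen IV trimer found in all basement membranes, differed least between the groups together with LAMB2. COL4A1 (chromosome 11, 84373663 to 84432619, minus strand) was at 386, 330.4 and 329 CPM in the low and 371, 453 and 396 CPM in the high libraries. COL4A2 (chromosome 11, 84613773 to 84675898, plus strand) was at 228, 216 and 186 CPM in the low and 195, 253 and 233 CPM in the high libraries. In both, high library 1 lay within the low group in deposited CPM. With TMM factors COL4A1 was at 382, 308 and 351 CPM in the low and 388, 439 and 398 CPM in the high libraries. The groups were then apart for COL4A1 and still overlapped for COL4A2. The log2 fold changes were 0.24 (SE 0.15) for COL4A1 and 0.13 (SE 0.14) for COL4A2, with quasi-likelihood adjusted p of 0.406 and 0.630. COL4A1 was at 0.16 without low library 2, and COL4A2 at 0.07 without high library 2 and at 0.21 without high library 1. These genes are known in mammals to share a promoter and be read in opposite directions, and in the table their records point away from each other with no listed record in the 181 kb between them.

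The ratio of COL4A1 to COL4A2 stayed between 1.53 and 1.90 over the 6 libraries, the narrowest relative range of the 7 ratios computed (exact permutation p = 0.2). HSPG2, in contrast, was at 0.409, 0.334 and 0.317 of the level of COL4A1 in low libraries 1 to 3 and at 0.545, 0.512 and 0.553 in high libraries 1 to 3. The groups did not overlap in that ratio, which was 0.353 ± 0.0490 in the low and 0.537 ± 0.0217 in the high group (SD, n = 3, exact permutation p = 0.1, adjusted p = 0.35).

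COL15A1, whose collagen XV joins the basement membrane to the surrounding matrix, had 2 records. That on chromosome 1 (ENSSSCG00000005380, 269048171 to 269072184) was at 27.2, 19.0 and 26.8 CPM in the low and 39.0, 43.3 and 33.7 CPM in the high libraries. That on the unplaced scaffold JH118626.1 (ENSSSCG00000029657, 97337 to 105382) was at 13.6, 9.85 and 15.6 CPM in the low and 24.9, 19.3 and 20.8 CPM in the high libraries. Neither overlapped between the groups, and low library 2 was lowest in both. The log2 fold changes were 0.67 (SE 0.20) and 0.74 (SE 0.24), with quasi-likelihood adjusted p of 0.162 and 0.185. Records of 1 symbol can share or split reads. Their ratio ranged from 1.57 to 2.24 with no separation of the groups (exact permutation p = 0.8), and with both summed into 1 record the log2 fold change was 0.70 (adjusted p = 0.160).

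The choice of test moved these calls. DESeq2 called 4 of the 13 records, LAMA4 (adjusted p = 4.19e-04), HSPG2 (0.00231), LAMC1 (0.0402) and the chromosome 1 record of COL15A1 (0.0444), beside 6.76% of all records. The exact test of edgeR called HSPG2 alone (adjusted p = 0.0147), beside 4.12% of all records. Its adjusted p equalled the rate in the authors' deposited table for 13 of 13 records (within a relative 1e-04), so both give 1 result, not 2. All 4 DESeq2 calls were higher in the high group, and limma-voom called none of the 13.

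**Figure D3:**
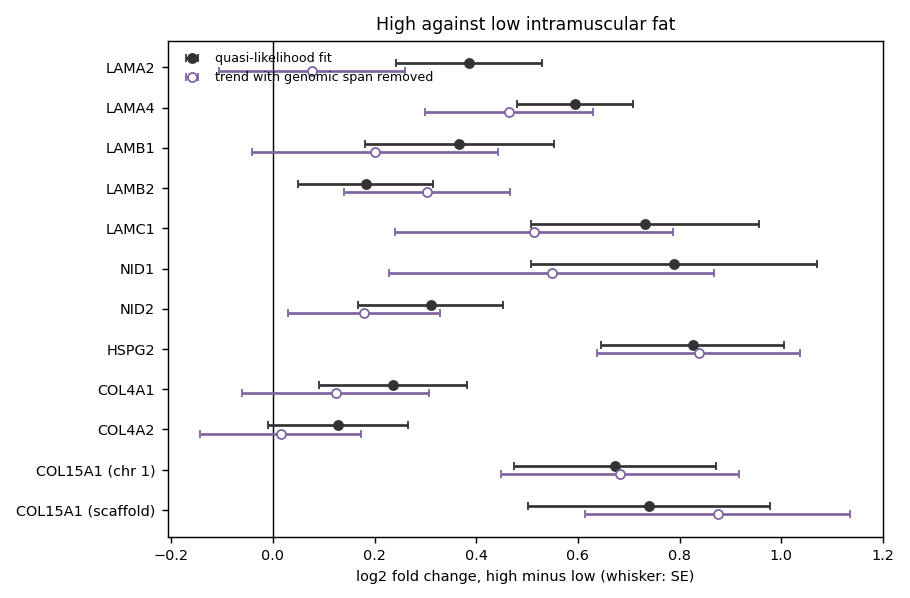
Log2 fold changes (high minus low) of 12 basement membrane records with their SE, from the quasi-likelihood fit (filled) and after removal of the trend with genomic span in each library (open). With the trend removed, LAMA2 moved from 0.39 to 0.08 and COL4A2 from 0.13 to 0.02, whereas HSPG2 stayed at 0.83 to 0.84.

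Long genes had higher log2 fold changes in this comparison, and most basement membrane genes are long. The median span of the 13 records was 62.1 kb, against 21.7 kb over all records. The tenth of records with the shortest span (median 1.73 kb) had a median log2 fold change of -0.18, and the tenth with the longest (median 156 kb) one of 0.22. With that trend removed in each library, LAMA2, which spans 302 kb, stood at 0.08 (SE 0.18) in place of 0.39, and LAMC1 at 0.51 in place of 0.73. LAMA4 was then at 0.46 and NID1 at 0.55. HSPG2 (26.3 kb) remained at 0.84, and the COL15A1 records (24.0 and 8.05 kb) were at 0.68 and 0.88. After removal 12 of 13 records were above 0, beside 49.7% of all records in the same fit, with a median of 0.30 against -0.002. An unadjusted p under 0.05 with a higher level was then found for 4 of the 13 in place of 7, beside 9.07% of all records. The trend was estimated from CPM without TMM factors and removed on top of them, so a library's overall shift was corrected for again. The SE rose for every member, for LAMA4 from 0.11 to 0.17. How much of the drop from 7 to 4 came from that repeated correction was not tested. These spans are those of the deposited records, and whether a record covers its whole gene was not checked. A record shorter than its gene would be corrected for too short a span. The part of span in the differences was not tested further.

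**Figure D4:**
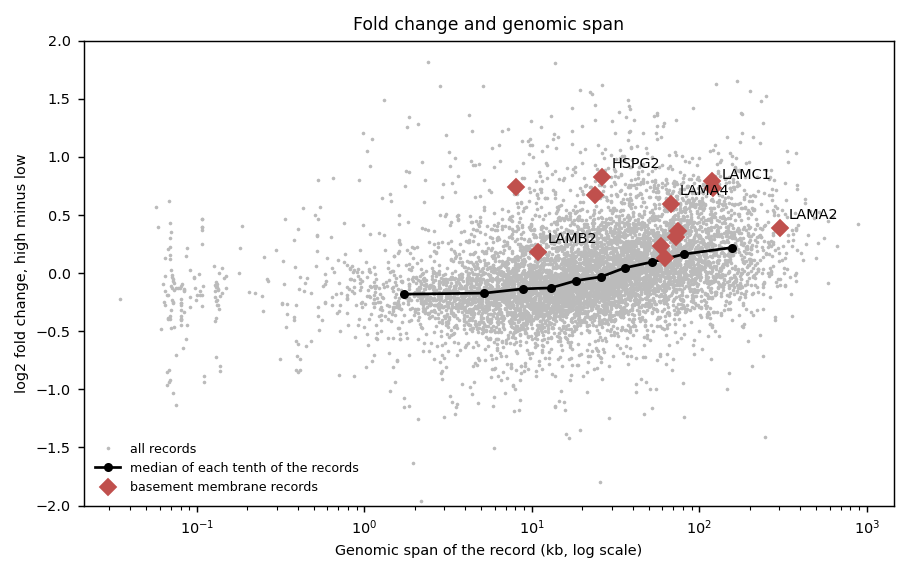
Log2 fold change (high minus low) against the genomic span of each record on a log axis, for all 7661 records (grey), the medians of 10 span classes (black line) and 12 basement membrane records (red); 13 records beyond 2 in size are outside the plotted range. The medians climb from -0.18 to 0.22 with span, and HSPG2 and LAMC1 lie above that line.

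The members did not vary as 1 block. The closest pair was LAMC1 and the chromosome 1 record of COL15A1, whose mean-centred log2 levels differed by 0.0642 (root mean square over 6 libraries), followed by COL4A1 and COL4A2 at 0.0958. LAMB2 and NID1 differed by 0.503. Within groups the coefficient of variation of deposited CPM was 0.640% for LAMA4 and 27.3% for NID1 in the low libraries, and 1.84% and 28.8% in the high libraries. The 0.640% is below the counting error of 2.51%. With TMM factors LAMA4 ran from 45.7 to 52.5 CPM over the low libraries. High library 2 held the highest level of 8 of the 13 records, and low libraries 2 and 3 held the lowest of 5 and 6. Summed over the 13 records, the level was 1669, 1451 and 1507 CPM in low libraries 1 to 3 and 1827, 2215 and 2016 CPM in high libraries 1 to 3.

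Outside the family, the records whose centred log2 profile over the 6 libraries came nearest to HSPG2 were TGFBR1 (root mean square difference 0.0403), ZEB1 (0.0653) and AFF1 (0.0866). Nearest to LAMA4 were SLC12A8 (0.0571), ATXN7 (0.0744) and SMARCA1 (0.0869). LAMC1 had ADD3 (0.0784), FBLN1 (0.0879) and ABI3BP (0.106) as nearest records, and the chromosome 1 record of COL15A1 had COL28A1 (0.0818), HECTD2 (0.0827) and ABI3BP (0.0903). Each was among the 3 closest to its member out of 6975 records with a symbol, and none of these 11 genes passed the threshold.

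Other components of basement membranes gave 12 records for 11 of 22 listed symbols, 8 above and 4 below 0, with a median log2 fold change of 0.47 and none called. COL28A1, a collagen VI-like chain of peripheral nerve sheaths, had 0.67 (SE 0.18, quasi-likelihood adjusted p = 0.142), at 12.9, 10.4 and 12.6 CPM in the low and 18.1, 22.4 and 16.5 CPM in the high libraries. FBLN1, the matrix glycoprotein fibulin, had 0.81 (SE 0.23, adjusted p = 0.157). FRAS1, a basement membrane protein of skin, had 0.89 (SE 0.30, adjusted p = 0.197), with high library 3 at 98.6 CPM against 53.4 and 44.1 CPM in high libraries 1 and 2.

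The laminin receptors and the dystrophin complex gave 20 records for 18 of 27 symbols. Of these, 18 were above 0, none was called and the median was 0.16. DMD (dystrophin, on its record ENSSSCG00000028148) was at 80.1, 58.8 and 34.2 CPM in the low and 99.2, 92.8 and 94.9 CPM in the high libraries. Low library 3 was far beneath the others, and the log2 fold change was 0.76 (SE 0.26, quasi-likelihood adjusted p = 0.197). On the other DMD record, ENSSSCG00000012205, the groups overlapped and the value was 0.39 (SE 0.20, adjusted p = 0.325). UTRN, the dystrophin relative utrophin, had 0.62 (SE 0.24, adjusted p = 0.232), and the sarcoglycan SGCB 0.53 (SE 0.20, adjusted p = 0.227). Low library 3 was again the lowest, at 18.7 CPM for UTRN and 28.1 CPM for SGCB. The 7 records of enzymes that glycosylate dystroglycan (7 of 24 symbols, none called) had a median of -0.07 and 2 above 0. GMPPA, which regulates the supply of GDP-mannose, had -0.17 (SE 0.14) and ISPD, which makes CDP-ribitol, 0.75 (SE 1.13), with quasi-likelihood adjusted p of 0.526 and 0.735.

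Genes of collagen folding and export gave 17 records for 17 of 29 symbols, 9 above 0, with a median of 0.02 and none called. SEC24D, a coat protein of the vesicles that carry procollagen, had 0.69 (SE 0.19, quasi-likelihood adjusted p = 0.150). It was under 10 CPM in every low library and above it in every high library. It thus entered the deposited table through the high group alone, which fixed the separation of its groups. TMEM38B, a cation channel of the endoplasmic reticulum, had 0.74 (SE 0.21, adjusted p = 0.152), and LEPREL1, a prolyl 3-hydroxylase acting on collagen IV, 0.39 (SE 0.13, adjusted p = 0.197). In 4 of the 17 records, SEC24D among them, every high library lay above every low library, and in 2 below, beside 800 and 1051 of all 7661 records. The 2 were PPIB (-0.42, SE 0.16, quasi-likelihood adjusted p = 0.230) and SLC39A13 (-0.35, SE 0.14, adjusted p = 0.236). The heparan sulfate enzymes (10 records for 10 of 26 symbols, 5 above 0, none called) had a median of 0.000253. B3GAT3, which completes the linker of the chain, had -0.40 (SE 0.15, adjusted p = 0.232), FAM20B, a kinase of that linker, 0.49 (SE 0.19, adjusted p = 0.238) and the sulfotransferase NDST2 -0.35 (SE 0.16, adjusted p = 0.287).

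Crosslinking and turnover gave 14 records for 13 of 26 symbols, 6 above 0, with a median of -0.04 and none called. TIMP3, a matrix-bound inhibitor of metalloproteinases, was at 31.2, 19.6 and 25.5 CPM in the low and 50.1, 66.3 and 51.0 CPM in the high libraries. The groups were well apart, with a log2 fold change of 1.14 (SE 0.21, quasi-likelihood adjusted p = 0.0921). BMP1, the protease that trims procollagens, had -0.73 (SE 0.21, adjusted p = 0.160), at 24.2, 38.3 and 30.1 CPM in the low and 20.6, 20.2 and 14.0 CPM in the high libraries. SULF1, which removes sulfate from heparan sulfate, had 0.46 (SE 0.17, adjusted p = 0.230).

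**Figure D5:**
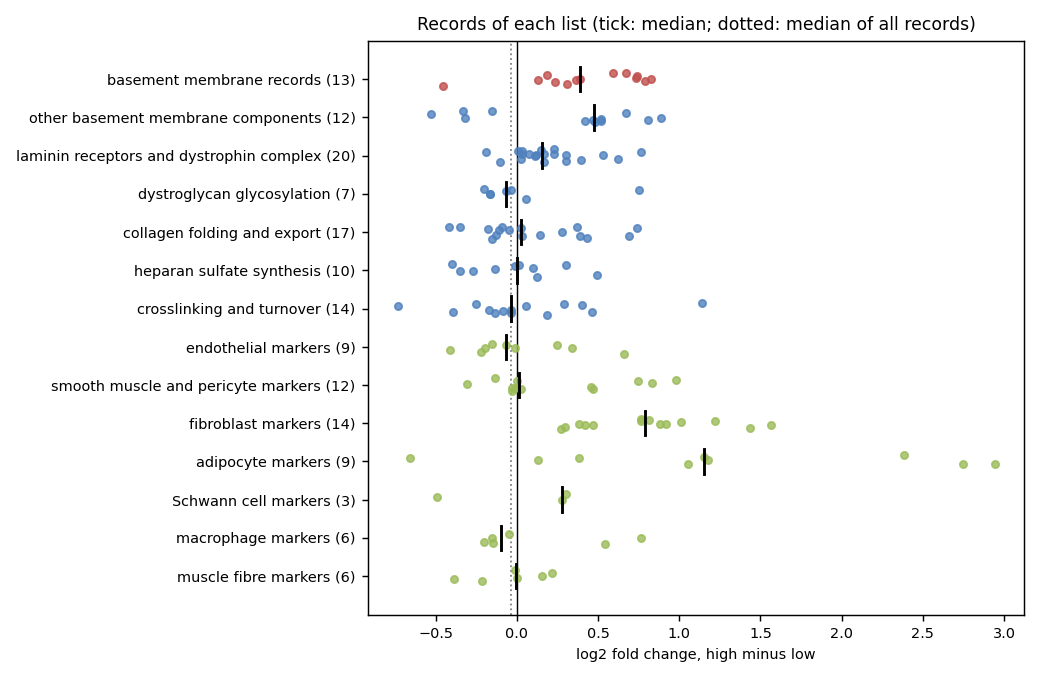
Log2 fold changes (high minus low) of the records of each gene list, with the number of records in brackets, the list median as a tick and the median of all records as a dotted line; red marks basement membrane records, blue related matrix genes and green cell type markers. The basement membrane, other basement membrane component, laminin receptor and dystrophin complex, fibroblast and adipocyte records lie mostly to the right of 0. The endothelial and muscle fibre records lie on both sides.

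Markers of the cell types that can make these chains differed in direction. All 14 fibroblast marker records, for 11 of 13 symbols, were above 0 (median 0.79) and none was called. In 9 of the 14 every high library lay above every low library, beside 10.4% of all records. The rest, among them DCN and DPT, overlapped. The summed level was 1590 to 2854 CPM in the low and 3403 to 4574 CPM in the high libraries. Most of it came from COL3A1 (means 941 CPM low and 1779 CPM high) and COL1A2. FAP had 0.77 (SE 0.19, quasi-likelihood adjusted p = 0.127) and PDGFRA, on its record ENSSSCG00000008841, 1.43 (SE 0.36, adjusted p = 0.132). The other PDGFRA record, ENSSSCG00000028873, had 0.88 (SE 0.24, adjusted p = 0.148). Of the 9 adipocyte marker records, 8 were above 0 (median 1.15) and 2 rose past the threshold, PLIN1 (2.75, SE 0.32) and THRSP on its record ENSSSCG00000024447 (2.94, SE 0.36), both with an adjusted p of 0.0409. Neither was called without low library 2, low library 3, high library 2 or high library 3, each left out alone, and 1 was called without high library 1. Neither was called by limma-voom or with the replicate number as a block. Both PLIN1 and that THRSP record were under 10 CPM in every low library and entered the deposited table through the high group alone. The direction count, median and calls of this list carry that selection. The other THRSP record, ENSSSCG00000020745, had 1.05 (SE 0.21, adjusted p = 0.108). AQP7 went the other way, at -0.66 (SE 0.24, quasi-likelihood adjusted p = 0.222). It was at 13.5, 18.9 and 12.7 CPM in the low and 6.62, 9.02 and 12.4 CPM in the high libraries. In 5 of the 9 records every high library lay above every low library, beside 10.4% of all records. For PLIN1, THRSP record ENSSSCG00000024447, CIDEA and CIDE-C every low library was under 10 CPM and every high library above it. Their separation was thus fixed by the 10 CPM limit of the deposited table and carries no information of its own. LIPE, PLIN4 and GPD1 overlapped between the groups. The 9 adipocyte marker records summed to 663 to 904 CPM in the low and 883 to 1197 CPM in the high libraries, which overlapped. Most of that sum came from GPD1 (means 558 CPM low and 601 CPM high) and PLIN4 (174 and 222 CPM). PLIN1 had means of only 6.35 and 42.5 CPM. The part of either cell type in the basement membrane differences was not tested.

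Endothelial markers, from cells whose sheets contain LAMA4, gave 9 records, 3 above 0, with a median of -0.07. Their summed level of 379 to 538 CPM in the low and 430.0 to 528 CPM in the high libraries overlapped. VWF had 0.66 (SE 0.26, quasi-likelihood adjusted p = 0.246) and KDR -0.41 (SE 0.20, adjusted p = 0.306). Smooth muscle and pericyte markers (12 records, 6 above 0, median 0.01) summed to 466 to 666 CPM in the low and 672 to 777 CPM in the high libraries, with MYH11 at 0.98 (SE 0.22, adjusted p = 0.116) and ABCC9 at 0.83 (SE 0.24, adjusted p = 0.160). Schwann cell markers (3 records: NCAM1 0.30, MBP -0.49, S100B 0.28), macrophage markers (6 records, 2 above 0, median -0.10, the 2 being CSF1R at 0.54 and MRC1 at 0.76) and muscle fibre markers (6 records, median -0.01, with TNNT1 at -0.39 and MYH4 at 0.22) had no called record. No marker record was at 0 in any library.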

How the data were processed

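Tissue RNA from 6 pigs (3 per fat group) was made into Illumina TruSeq libraries, per the labels' protocols. FastQC 0.10.1, Trimmomatic 0.22, TopHat2 2.0.4 and BWA 0.6.2 are named in the submitters' processing notes. No source used here names the counter, its strand setting, the genome build or the annotation, so antisense or overlapping genes cannot be told apart; coordinates and genomic spans are those of the deposited table. The authors deposited raw read counts and CPM per record. Count divided by CPM gave 1 whole library total per library, used as library size. The authors' deposited log2 fold changes (low over high, turned around here), p-values and false discovery rates come from a test the sources used here do not name; the rates of the 13 records equalled those of the exact test of edgeR.

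Counts were tested with edgeR 4.0.16 (R 4.3.3): TMM, filterByExpr (which kept all 7661 records), the quasi-likelihood F-test without covariates and Benjamini-Hochberg adjustment over all records, with a threshold of 0.05, tested on simulated data. SE is the absolute log2 fold change over the square root of F. Levels are deposited CPM. Log2 profiles used a prior count of 2. The span trend was a lowess curve per library on log10 span, fitted to log2 CPM after subtracting each record's mean over the 6 libraries. That CPM held no TMM factors, and the curve was added to the TMM offset. DESeq2 1.42.0, limma 3.58.1 (voom), other factors and filters, the exact test and left-out libraries were alternatives. Symbols came from the deposited table for 6417 records, the Ensembl name table for 401 and RefSeq for 170; 673 had none.

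The members, the gene lists and the ratios were chosen with earlier results of these data known. Named genes were the members, called list records and otherwise the 3 lowest p-values per list (2 per marker list), and the 3 nearest profiles of 4 members. Values of 1 member, 1 ratio and 1 list gene are not reported here, though counts and medians include them. S100B was added after its value was seen, to complete a list of 3. AQP7, LIPE, PLIN4, GPD1, CIDEA, CIDE-C, COL3A1, COL1A2, DCN, DPT, PPIB and SLC39A13 were also named after their values were seen. The summed COL15A1 records were chosen after seeing the data. The labels name no sequencing batch. The quasi-likelihood p-values weigh the group difference against the spread between libraries of a group, estimated with information from all records. Counting limits cover counting error only.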

Additional observations from a re-analysis of the deposited data

How the results depend on the processing

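Over all records the 11 calls became 518 in DESeq2, 316 in the exact test of edgeR, 77 at a threshold of 0.1 and 2 with the replicate number as a block, and lay between 1 (without low library 2) and 30 (without low library 1) when single libraries were left out. Among the 13 basement membrane records the 0 calls became 4 in DESeq2, 1 in the exact test and 1 at a threshold of 0.1 (LAMA4), and ran from 0 to 1 with single libraries left out (HSPG2 without low library 1). Their median log2 fold change ran from 0.33 to 0.58 over those omissions; the highest value came without low library 3, and the cause was not tested. It was 0.30 with the span trend removed. Of 194 pairs of a record and an alternative, 188 kept the direction and the side of the threshold, 6 passed it newly and 0 changed direction; 2 records, among them the scaffold record of COL15A1, have no value at a mean CPM of at least 20. The replicate numbers did not pair the libraries: deviations from the group means correlated across records at 0.118, 0.0312 and -0.0815 for numbers 1 to 3, and not every library correlated best with its own number. The replicate block left 0 calls among the 13 records.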
